A study of Mus musculus with 14 samples.

Results

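Hepatic organoids built from directly converted mouse cells (iHLOs) were compared with adult mouse liver by RNA sequencing, to see which liver functions the organoids reached, missed or exceeded at the RNA level. The comparison used 4 of the 14 libraries of the series, 2 of iHLOs and 2 of adult liver. It covered every gene whose mean log2(count + 1) over these 4 libraries was at least 3, which left 13988 of the 28022 genes in the count table. The iHLO libraries carry the label 3D-iHA, which the labels expand as hepatic assembloids, and the study calls the organoids without endothelial cells iHLOs. iHLOs are spheroids of induced hepatic stem cells (iHepSCs), which are fibroblasts converted with the transcription factors *Hnf4a* and *Oct4*, embedded in a hydrogel of collagen and Matrigel and grown in a medium with oncostatin M. The adult liver is whole tissue and therefore also holds cholangiocytes, endothelial, stellate and immune cells. All 4 libraries are labelled as strain C57BL/6J. The labels give no age. According to the study's methods, the fibroblasts came from embryos. The methods name young adult animals for the adult liver used in quantitative PCR, and give no age for the sequenced adult liver. The groups therefore differ in the age of their source, in the introduced conversion factors and in culture with its medium, and these cannot be told apart. No label says that the 2 libraries of a group came from separate cultures or animals, and all of them are labelled as the same replicate, so the p-values below measure only the spread between these libraries, which may be technical.

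The adult hepatocyte exports most plasma proteins, makes bile acids from cholesterol, turns ammonia into urea, releases glucose during fasting, burns and builds fat, breaks down amino acids, and oxidizes and conjugates drugs. These genes are switched on by a network of liver-enriched transcription factors (the HNF4, FOXA, C/EBP, GATA and ONECUT families) together with nuclear receptors that sense bile acids, lipids and xenobiotics. Bipotent hepatic progenitors share part of this network with cholangiocytes, the keratin-rich epithelium of the bile ducts.

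The iHLO libraries held 28838279 and 27998348 counts and the adult libraries 34323473 and 35022256. Between 16935 and 17036 genes had at least 1 count in each library. *Alb*, which encodes serum albumin, alone took 23.6% and 22.5% of the adult counts, whereas *Eef1a1*, a translation elongation factor, was the most counted gene of the iHLOs with 1.09% and 1.11%. Values were therefore scaled with TMM, a method that sets library scales from the bulk of the genes and not from the total. The TMM factors were 1.69 and 1.71 for the iHLOs and 0.58 and 0.59 for adult liver. A level below is a count scaled to a common library size (scaled CPM) unless it is called a count, and a percentage is the mean scaled CPM of the 2 iHLO libraries divided by that of the 2 adult libraries. Scaling by library totals alone moves every log2 fold change up by about 1.53, so a gene that is lower by less than 1.53 on the log2 scale under TMM changes its direction with the scaling. This holds for every gene in that range, and the cases among the genes described are named with their list. For a gene without a single count in a group, a floor of 3 counts per library was used, and the fold is then given as a bound (at least so many fold). In RNA from whole tissue or whole organoids, fewer cells of a type and less RNA per cell cannot be told apart.

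iHLOs and adult liver differed across most of the transcriptome. By edgeR's quasi-likelihood test with a Benjamini-Hochberg adjusted p under 0.05, 12316 of the 13988 genes were called (88.0%). Of these, 6197 (44.3% of tested genes) were higher in iHLOs and 6119 (43.7%) were lower. With library totals as the scale, the split was 10282 higher (73.5%) and 2943 lower (21%). Since most genes were called, a called gene was also asked to differ by at least 2-fold: 3463 genes (24.8%) were called and at least 2-fold higher, and 4110 (29.4%) were called and at least 2-fold lower. A gene was counted as reaching the adult level when the whole 95% confidence interval of its fold change lay within 2-fold of adult liver, which held for 5122 genes (36.6%). Under library totals, 8791 genes (62.8%) were at least 2-fold higher, 2362 (16.9%) at least 2-fold lower and 2000 (14.3%) within 2-fold, and 327 of the 5122 genes stayed within. Below, reaching the adult level or lying within 2-fold refers to the TMM scale unless library totals are named. All iHLO values lay above all adult values for 47.1% of the tested genes and below them for 46.3%, so non-overlap alone carries little information here.

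The genes that were at least 2-fold lower in iHLOs held 79.3% of all adult liver counts. No count at all was found in either iHLO library for 331 tested genes, and those genes held 9.85% of the adult counts. Genes without iHLO counts passed the filter through the adult libraries alone and so had to be lower. A further 301 genes were below 0.1% of the adult level and held 42.1% of the adult counts. All of the 20 genes with most adult counts, which together took 36.9% of them, were at least 2-fold lower in iHLOs, and 7 of the 20 had no iHLO count. Of the 100 genes with most adult counts, 97 were at least 2-fold lower and 3 were within 2-fold, and these 100 genes took 52.5% of adult counts against 3.29% of iHLO counts. Ranked the other way, of the 100 genes with most iHLO counts, 47 were at least 2-fold higher, 44 were within 2-fold and 4 were at least 2-fold lower. Either ranking picks genes through the group in which they are high, so these counts are descriptions. Among the next lower adult ranks the losses thinned out: of the 500 genes with most adult counts, 422 were at least 2-fold lower, 65 were within 2-fold and 9 were at least 2-fold higher. Genes that adult liver expressed at least 16-fold above the fibroblasts of the same series numbered 1814, with 1479 lower, 108 within 2-fold and 181 higher, and their median level in iHLOs was 1.59% of adult liver. That set was chosen by its level in the same adult libraries, so these counts are descriptions too.

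**Figure D1:**
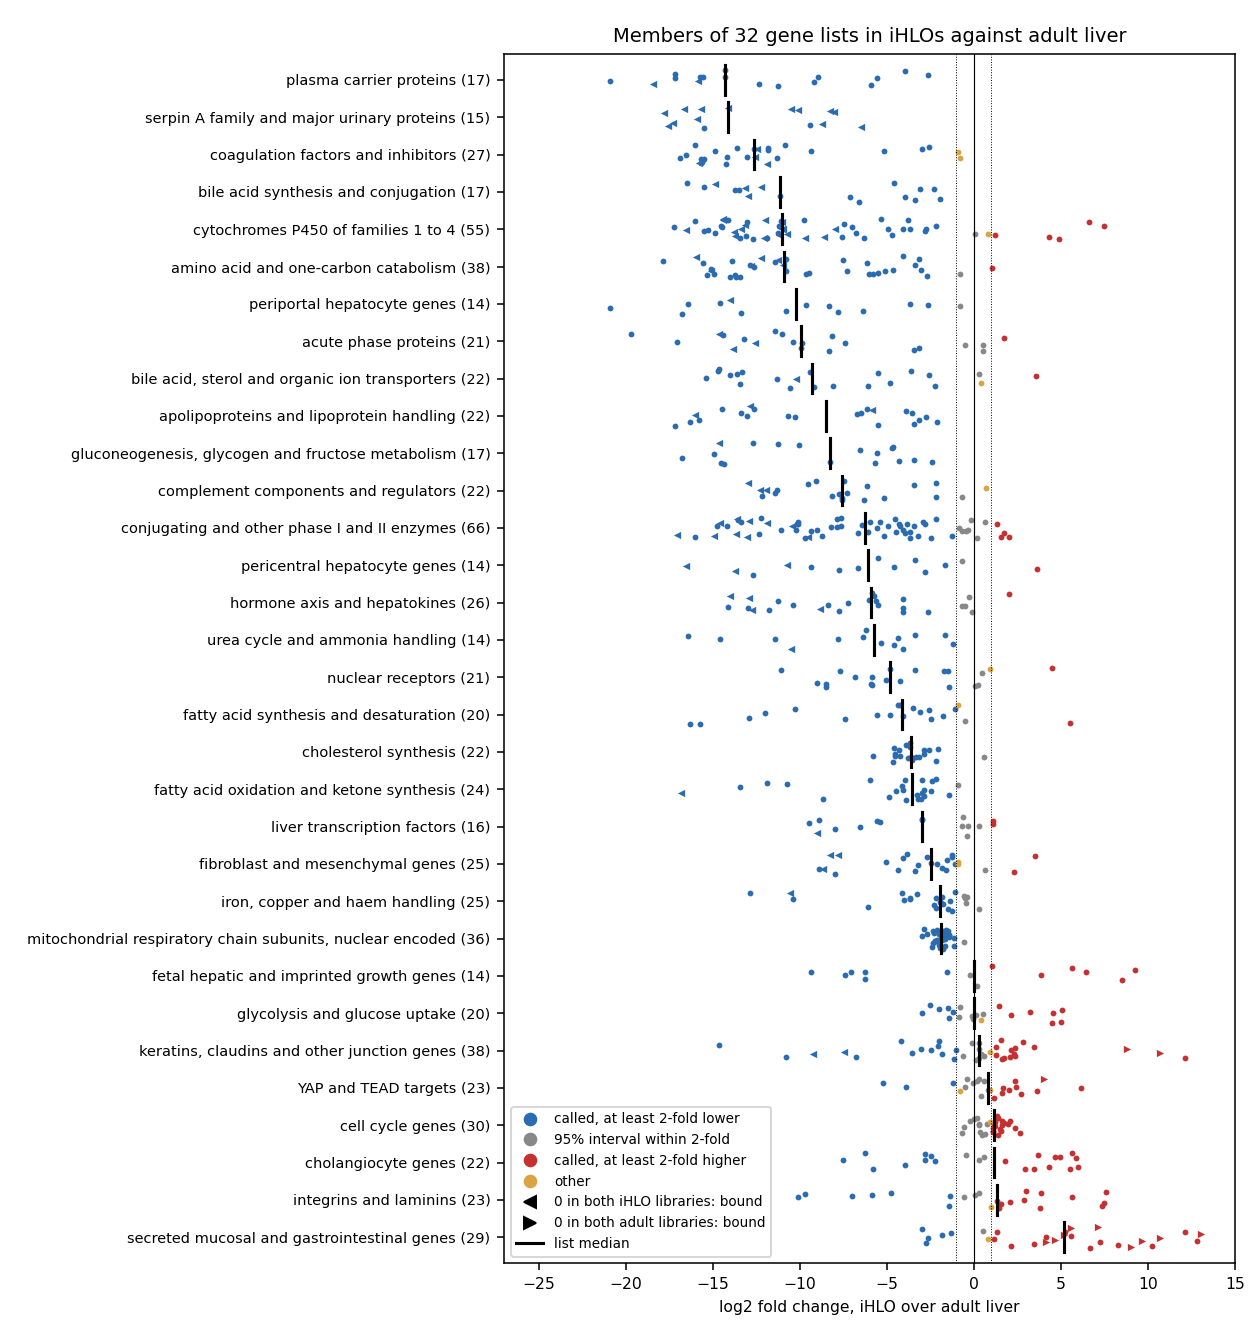
Log2 fold change of iHLOs against adult liver (x axis; TMM-scaled counts, 2 libraries in each group) for every tested member of each gene list (y axis, ordered by median). Points are genes, coloured by whether they were at least 2-fold lower, within 2-fold or at least 2-fold higher. Triangles are bounds for genes with 0 counts in 1 group, set at a floor of 3 counts per library. The secreted and metabolic lists lie to the left, with a median of -14.29 for plasma carrier proteins, and only the glycolysis, cholangiocyte, junction, mucosal, cell cycle, integrin and YAP lists have medians above 0, joined under library totals by the fetal list.

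Across 527 genes of the liver function lists, 513 passed the filter. Of those, 454 were at least 2-fold lower (29.4% of all tested genes were), 34 were within 2-fold (36.6%), 18 were at least 2-fold higher (24.8%) and 7 fell in none of these classes. The median level was 0.775% of adult liver, 260 genes were under 1%, and 75 had no iHLO count, so that the filter alone set the direction of those 75. Scaled by library totals, 418 of the 513 were still at least 2-fold lower, 38 were within 2-fold and 47 were at least 2-fold higher. The plot of all lists shows that the lists did not move as a block, and they are described in order from the regulators to the secreted and metabolic targets.

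Of 16 liver transcription factors, 9 were at least 2-fold lower, 5 were within 2-fold and 2 were at least 2-fold higher, against 29.4%, 36.6% and 24.8% of all tested genes. The median was 12.7% of the adult level. Of the factors within 2-fold, 3 are described. *Foxa2*, a pioneer factor of the endoderm, stood at 79.0%, with 55.2 and 54.9 against 67.0 and 72.4 scaled CPM. *Cebpb*, a C/EBP factor induced by cytokines, stood at 75.2%, and *Tbx3*, a T-box factor of liver progenitors, at 62.5%. These 3 factors were slightly lower under TMM and higher under library totals (log2 fold changes of 1.19 for *Foxa2*, 1.12 for *Cebpb* and 0.85 for *Tbx3*), so their direction depends on the scale.

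*Gata4* and *Gata6*, zinc finger factors needed for liver bud growth, exceeded adult liver. *Gata4* measured 60.7 and 61.8 scaled CPM in iHLOs and 27.9 and 29.8 in adult liver, a 2.12-fold difference (adjusted p = 2.73e-11). *Gata6* measured 26.5 and 29.3 against 12.6 and 12.9, a 2.19-fold difference. *Hnf4a*, the nuclear receptor that served as a conversion factor, was at least 2-fold lower: it measured 110.2 and 117 scaled CPM in iHLOs and 880.5 and 903 in adult liver, or 12.7% (log2 fold change -2.97 ± 0.05, SE). Reads of the introduced *Hnf4a* and of the endogenous gene cannot be told apart in a gene count. The other conversion factor, *Oct4* (*Pou5f1*), had 11 and 15 counts in iHLOs and none in adult liver and did not pass the filter.

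The other 8 lower factors were far below the adult level, apart from *Onecut2*. *Cebpa*, the C/EBP factor that drives metabolic genes and restrains division, measured 8.95 and 8.24 scaled CPM in iHLOs against 409.5 and 389 in adult liver (2.15%). *Prox1*, which hepatoblasts need to migrate and mature, was at 1.08%, and *Hhex*, an early homeobox factor of the liver bud, at 2.38%. *Foxa1* had 5 and 2 counts against 367 and 404, so that of the FOXA factors *Foxa2* alone lay near the adult level. *Foxa3* had 8 and 5 counts against 1365 and 1361, and *Nr5a2*, a nuclear receptor that acts on bile acid genes, had 4 and 4 against 1233 and 1274. *Onecut1* had no iHLO count and 605 and 678 adult counts, which makes it at least 506-fold lower, while its relative *Onecut2* was at 12.6%. Under library totals 4 of the 13 factors called lower took the other sign, the 3 named above among them, and 9 were at least 2-fold lower in that scaling too.

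**Figure D2:**
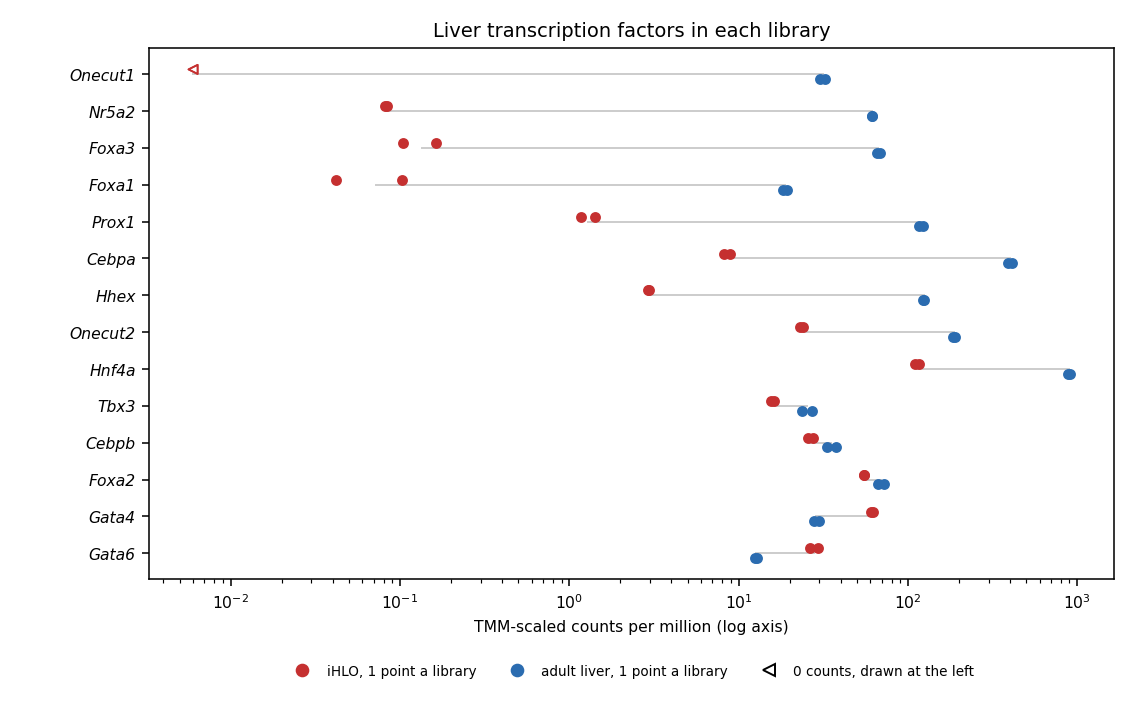
Level of each of 14 liver transcription factors (x axis, TMM-scaled CPM on a log axis; each point is 1 library, 2 for iHLOs and 2 for adult liver; open triangles at the left edge stand for 0 counts). *Gata4* and *Gata6* lie above adult liver, *Foxa2*, *Cebpb* and *Tbx3* lie within 2-fold of it (all 3 change direction under library totals), and *Onecut1* has no iHLO count.

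The nuclear receptors were mostly lower as well, with 16 of 21 at least 2-fold lower, 3 within 2-fold and 1 at least 2-fold higher (29.4%, 36.6% and 24.8% of all tested genes were), and a median of 3.53% of the adult level. Receptors that sense drugs and liver metabolites were among the low ones. *Nr1i3* (CAR), which switches on drug-metabolizing genes, had 2 and 0 counts in iHLOs and 984 and 1124 in adult liver. *Nr1i2* (PXR), its partner in drug sensing, was at 1.76% with 133 and 115 against 2877 and 3079 counts. *Nr1h4* (FXR), the bile acid receptor, was at 0.878%, and *Nr0b2* (SHP), its repressor target, at 3.53%. *Ppara*, the fasting lipid sensor, was at 0.273%, and *Nr1h3* (LXR alpha) at 0.191%. The receptors within 2-fold are widely expressed ones: *Esrra* was at 104%, *Rxrb* at 118% and *Nr1h2* at 139%. *Ahr*, the dioxin receptor, stood at 37.5% and changes sign under library totals, as does *Nr3c1*, the glucocorticoid receptor, at 36.5%. *Ppard* was called higher at 190.4% without reaching 2-fold. *Vdr*, the vitamin D receptor, which hepatocytes hardly express, was 23.5-fold higher, with 212 and 174 counts in iHLOs against 2 and 5 in adult liver.

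Promoters of 3 lost plasma protein genes are shown as examples that hold the binding motif of the C/EBP factors, of which *Cebpa* was at 2.15% and *Cebpb* at 75.2% of the adult level, the latter higher under library totals. They are the 120 bases before the RefSeq transcription start in the mouse build GRCm38.p6, written 5′ to 3′ on the strand of the gene. Capitals mark the C/EBP motif TTGCNNAA in either orientation, which in *Alb* is on the other strand.
*Alb*: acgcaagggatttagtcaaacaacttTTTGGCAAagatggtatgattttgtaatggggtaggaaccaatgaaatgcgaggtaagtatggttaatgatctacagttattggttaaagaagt
*Fgb*: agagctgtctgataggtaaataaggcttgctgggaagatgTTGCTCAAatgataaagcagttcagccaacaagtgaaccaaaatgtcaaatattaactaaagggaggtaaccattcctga
*F9*: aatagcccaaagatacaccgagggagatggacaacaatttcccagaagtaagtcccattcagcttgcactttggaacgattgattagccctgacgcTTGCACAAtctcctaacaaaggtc
The shown stretches lie on the plus strand at chr5:90460750-90460869 for *Alb* and chrX:59999344-59999463 for *F9*, and on the minus strand at chr3:83049864-83049983 for *Fgb*. Over the 250 bases before the start, motifs were searched on both strands in 32851 promoters of 27025 genes. Of the named liver-list genes that were at least 2-fold lower, 58 of 74 had a promoter in the table, which gave 74 promoters. Of those within 2-fold or higher, 16 of 28 had a promoter, which gave 21 promoters. The C/EBP motif was found in 9.56% of all promoters, in 19 (25.7%) of the promoters of the lower genes and in 1 (4.76%) of the others. The TATA box TATAAA was found in 12.4% of all promoters, in 19 (25.7%) and in 3 (14.3%), and the CCAAT box CCAAT in 33.8%, in 29 (39.2%) and in 5 (23.8%). The HNF4 motif CAAAGTCCA was found in 0.384% of all promoters and in 1 promoter of each group. The named genes were chosen in part by their level and ratio, so the shares are descriptions. A motif match is a description of the letters and does not show that a factor binds there. The 3 genes were picked for display after their values were seen.

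Plasma carrier proteins were lower throughout. All 17 plasma carrier proteins were at least 2-fold lower (29.4% of tested genes were), 13 of them were under 1% of the adult level, and their summed level was 0.41% of that in adult liver. *Alb* had 3 and 16 counts in the iHLO libraries and 8113083 and 7888792 in adult liver, which is 5.04e-05% after scaling (log2 fold change -20.90 ± 0.15, SE; adjusted p = 1.13e-21). The 2 iHLO libraries differed for *Alb*, and the log2 fold change was -20.14 without iHLO library 1 and -22.51 without iHLO library 2. *Serpina6*, the corticosteroid carrier, and *A1bg* had no iHLO count against 442772 and 457447 and 74478 and 76632 adult counts, which makes them at least 355520.4-fold and 59679.9-fold lower. *Gc*, the vitamin D carrier, had 5 and 4 counts against 285278 and 289972. *Ahsg*, which carries calcium phosphate, had 40 and 47 counts against 365790 and 382464, and *Hpx*, which carries haem, had 28 and 21 against 208753 and 209076. *Vtn*, vitronectin, was also among the 10 genes with the largest decreases over all genes, with no iHLO count against 145362 and 152469.

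A few carriers were made in quantity and still fell short. *Selenop*, the selenium carrier, was the highest of them with 1548 and 1514 scaled CPM in iHLOs against 9992 and 9347 in adult liver (15.8%). *Cp*, the copper ferroxidase ceruloplasmin, measured 449.7 and 439 against 6889 and 6786 (6.5%). *Ttr*, the thyroid hormone carrier transthyretin and an early marker of hepatic fate, measured 59.9 and 51.8 against 3427 and 3176 (1.69%). Per transcript length, *Selenop* stood at 3292 TPM, *Cp* at 436 TPM and *Ttr* at 211 TPM in iHLOs, while *Alb*, with its unequal iHLO libraries, stood at a mean of 0.437 TPM there and at 235629 TPM in adult liver.

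Protease inhibitors and urinary proteins were almost silent. Among 15 tested members of the serpin A and major urinary protein list, all were at least 2-fold lower (29.4% of all tested genes were). Of these, 13 had no iHLO count (these 13 passed the filter through adult liver alone), while adult liver gave up to 289870 and 292229 counts (*Serpina3k*). *Serpina1a* to *Serpina1e*, the antitrypsin genes, had 0 counts in both iHLO libraries, and *Serpina1b* was at least 193717-fold lower. These genes, like the *Mup* genes, are near-identical copies, so the split of adult reads among them is uncertain. *Mup20* had 0 and 3 counts against 455 and 525.

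Blood clotting factors were lower almost without exception. Of 27 coagulation genes, 25 were at least 2-fold lower and none was within 2-fold (29.4% and 36.6% of all tested genes were). The median log2 fold change was -14.21, or -12.64 when genes without iHLO counts are set at their bound. *Fga*, a fibrinogen chain, had 4 and 73 counts against 132095 and 138284, *Fgb* had 2 and 5 against 144230 and 147875 and *Fgg* had 1 and 2 against 84458 and 86342. The 2 iHLO libraries differ for *Fga* more than for its partner chains. *F2*, prothrombin, had 71 and 61 counts in iHLOs against 100786 and 103071, and *Plg*, plasminogen, had none against 70737 and 74962 (at least 57525-fold lower). *F9*, *F11* and *F13b* were likewise without iHLO counts. *Kng1*, kininogen, had 6 and 6 counts against 132235 and 133789, and *Habp2* had 6 and 4 against 7810 and 8162. The members nearest to the adult level are not liver-made clotting factors: *Ggcx*, the vitamin K-dependent carboxylase, was at 53.5%, and *F3*, the tissue factor of epithelia, at 57.6%. Both were lower under TMM and higher under library totals (log2 fold changes of 0.63 and 0.73). *Pros1*, protein S, was at 16.6%.

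Of 22 tested complement genes, 21 were called lower, 20 were at least 2-fold lower and 1 was within 2-fold (43.7%, 29.4% and 36.6% of all tested genes were). Their median was 0.527% of the adult level. *C3*, the central component, measured 41.9 and 32.7 scaled CPM against 19623 and 20971 (0.184%). *C8a*, *C8b* and *Mbl1* had no iHLO count, and *Mbl2*, a mannose-binding lectin, had 17 and 19 counts against 35524 and 35107. *C4bp*, a soluble inhibitor, was at 22.5% and 171 and 189 scaled CPM, and *C9*, of the membrane attack complex, was at 9.25%. *Cd55*, a membrane regulator present on most cells, was within 2-fold at 61.7% and changed direction under library totals (log2 fold change 0.84). *Cd46* had 79 and 110 counts against 24 and 26, a call that depended on single libraries.

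The acute phase list was divided. Of 21 genes, 17 were at least 2-fold lower, 3 were within 2-fold and 1 was at least 2-fold higher (29.4%, 36.6% and 24.8% of all tested genes were). *Crp*, *Apcs* and *Fgl1* had no iHLO count, *Hp*, haptoglobin, had 249 and 282 counts against 104920 and 103779, and *Itih4* had 1 and 0 against 233218 and 255039. *Lbp*, the lipopolysaccharide binding protein, stood out with 685 and 671 scaled CPM in iHLOs against 201 and 206 in adult liver, a 3.33-fold difference (log2 fold change 1.73 ± 0.04, SE; adjusted p = 1.69e-15). *Lcn2*, *Saa3* and *Il1rn*, which epithelia and macrophages outside the liver also make under inflammation, were within 2-fold at 142%, 71.3% and 143%, with *Saa3* on the other side under library totals. Of the serum amyloid and orosomucoid genes, *Saa1* was at 9.35%, *Orm3* at 11.4% and *Orm1* at 0.348%.

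Lipoprotein genes were lower in all 22 cases (43.7% of all tested genes were), with a median of 0.069% of the adult level. The small apolipoproteins were nearly absent: *Apoa2* had 2 and 4 counts against 190405 and 198694, and *Apoc1* none against 83073 and 85061 (at least 66407-fold lower). *Apoe*, which loads remnants for uptake, had 162 and 158 counts against 550365 and 575956 (0.0120%). *Apob*, the backbone of very low density lipoprotein, was retained at 462 and 457 scaled CPM against 6773 and 6737 (6.80%), and *Apoa1*, the backbone of high density lipoprotein, at 209 and 196 against 9648 and 8979.8 (2.17%). *Mttp*, the transfer protein that lipidates *Apob*, was at 0.942%. *Lrp1*, a remnant receptor, was at 14.8%.

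**Figure D3:**
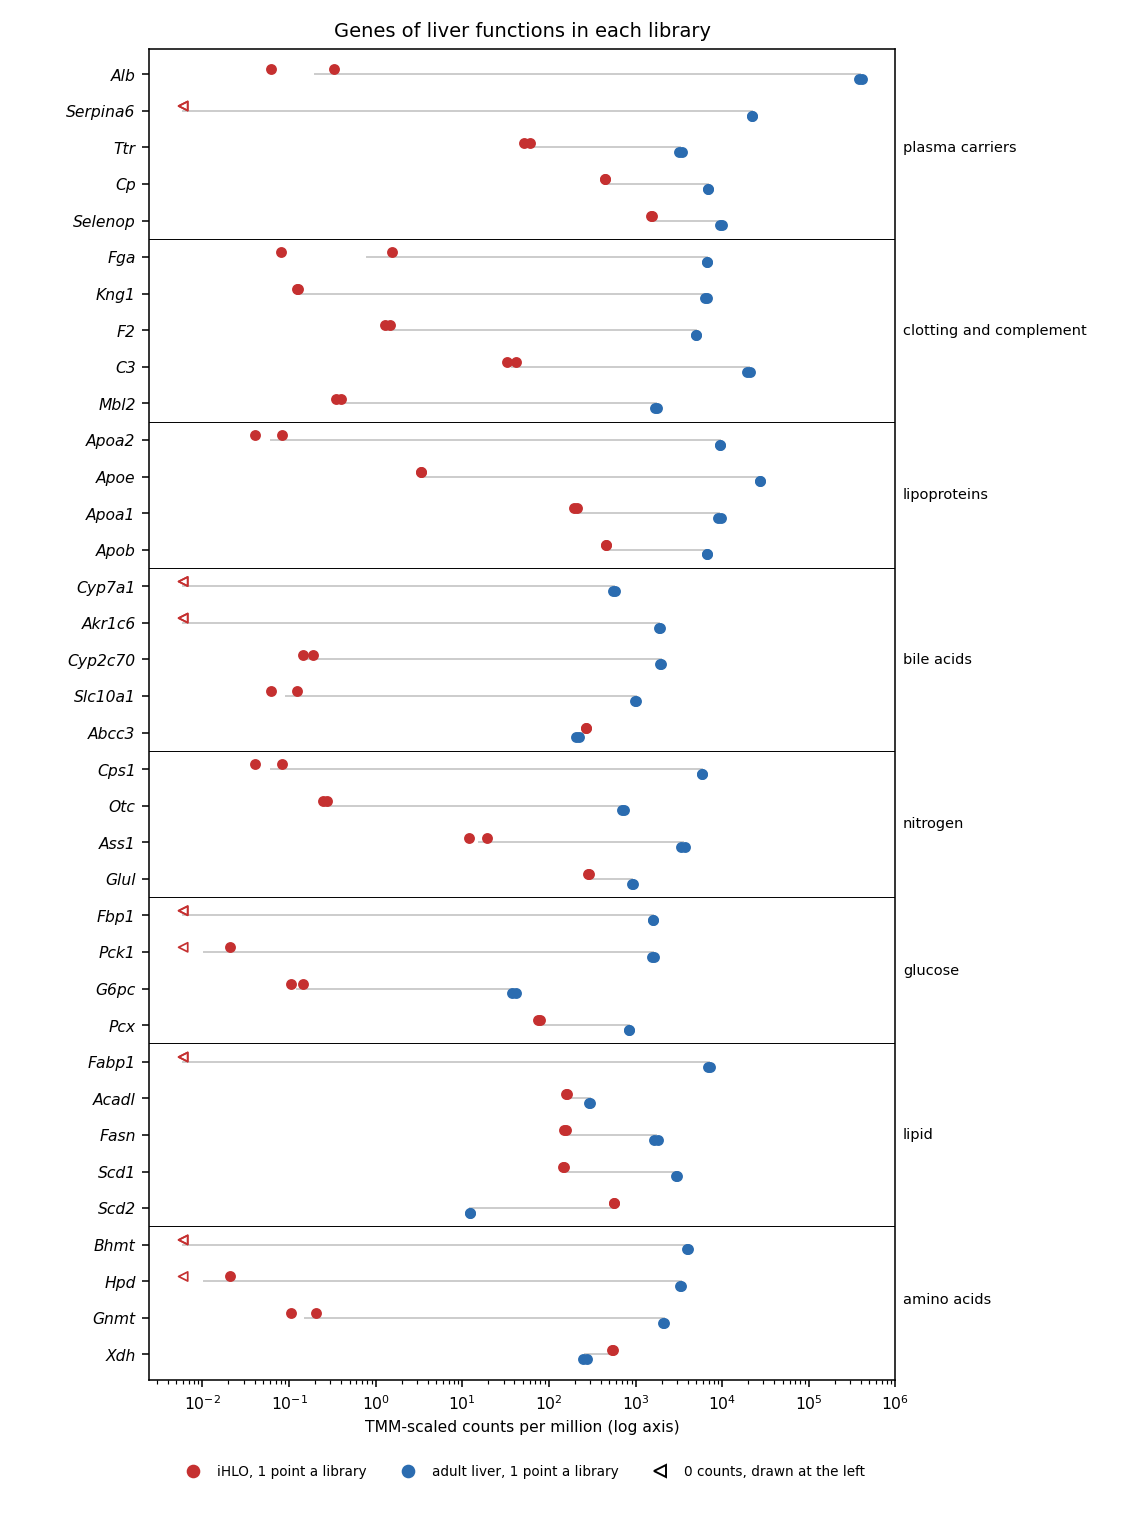
Level of 36 genes of liver function in each library (x axis, TMM-scaled CPM on a log axis; points are libraries, 2 for iHLOs and 2 for adult liver; open triangles at the left edge are 0 counts), grouped by function. Most iHLO points lie several decades left of the adult points, as for *Alb* and *Cps1*, while *Abcc3* lies within 2-fold, and *Scd2* and *Xdh* lie to its right.

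Bile acid synthesis was lower in all 17 tested genes (43.7% of all tested genes were), and several defining steps had no counts. *Cyp7a1*, the rate-limiting enzyme of bile acid synthesis, had no iHLO count against 11642 and 11439 (at least 9120.2-fold lower), and *Cyp8b1*, which sets the make-up of the pool, had none against 5961 and 6205. *Akr1d1* and *Akr1c6*, steroid reductases, had no count either, against 10271 and 9968 and 38322 and 38419 in adult liver. *Cyp2c70*, which makes the muricholic acids of mice, had 7 and 9 against 39352 and 40411. *Baat* and *Slc27a5*, which conjugate bile acids, had 1 and 1 and 1 and 2 counts. *Acnat2* had 1 and 2 counts against 1595 and 1556. Of the members with a higher relative level, *Cyp27a1* was at 9.75%, *Acox2* at 20.1% and *Cyp39a1* at 26.1%.

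Of 22 tested transporters, 19 were at least 2-fold lower, 1 was within 2-fold and 1 was at least 2-fold higher (29.4%, 36.6% and 24.8% of all tested genes were). Uptake and export carriers of hepatocytes were far below adult liver. *Slc10a1* (NTCP), the sodium-dependent bile acid importer, had 6 and 3 counts against 20383 and 20697, and *Abcb11* (BSEP), the canalicular exporter, had 0 and 2 against 12643 and 13341. *Slco1b2* had 0 and 2 against 21167 and 20779, and *Abcc2* (MRP2) was at 0.148%. The basolateral exporters *Abcc3* and *Abcc4* were not lower. *Abcc3* (MRP3) measured 271 and 266 scaled CPM in iHLOs and 205 and 225 in adult liver (125%, within 2-fold). *Abcc4* (MRP4) measured 94.5 and 94.9 against 7.72 and 8.40, a 11.7-fold excess (adjusted p = 4.94e-17).

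The urea cycle was lower at every step. All 14 genes of ammonia handling were lower (43.7% of all tested genes were), with a median of 1.92% of the adult level. *Cps1*, the entry enzyme, had 2 and 4 counts against 116083 and 122899, and *Otc* had 12 and 13 against 14880 and 14503. *Nags*, which makes the activator of *Cps1*, had none against 1827 and 1905. The cytosolic steps that other tissues use to make arginine were at a higher relative level, with *Ass1* at 0.442% and *Asl* at 1.39%. *Glul*, glutamine synthetase, was at 291 and 286 scaled CPM against 907 and 924 (31.5%). *Got1*, a transaminase of the malate-aspartate shuttle, was at 44.2% and was higher than adult liver under library totals (log2 fold change 0.35), the only called member that changed sign.

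Glucose output was lower in all 17 genes (43.7% of all tested genes were), with a median of 0.313% of the adult level. *Fbp1* had no iHLO count against 32028 and 33039 (at least 25697-fold lower), *Pck1*, the cytosolic gatekeeper, had 0 and 1 against 31263 and 33626, and *G6pc*, which frees glucose, had 7 and 5 against 834 and 781. *Slc2a2*, the hepatic glucose carrier, had 10 and 8 counts in iHLOs. *Pcx*, a mitochondrial enzyme that also feeds lipid synthesis, was at 9.08%. No member changed sign under library totals.

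Amino acid and purine breakdown was lower in 36 of 38 genes by at least 2-fold (29.4% of all tested genes were), with a median of 0.044% of the adult level. *Hpd*, of tyrosine breakdown, had 0 and 1 iHLO counts against 66959 and 67892. *Bhmt*, which remethylates homocysteine, had none against 81147 and 82075, and *Gnmt* had 10 and 5 against 42444 and 43459. *Mmut* and *Bckdhb*, mitochondrial enzymes of most tissues, were at 15.8% and 12.4%. *Xdh*, xanthine dehydrogenase, was the exception above adult liver, at 549 and 536 against 249 and 276 scaled CPM (2.07-fold, adjusted p = 8.90e-12). *Sdsl*, a serine dehydratase-like enzyme, was within 2-fold at 57.7% and higher under library totals (log2 fold change 0.74).

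Drug oxidation genes were largely absent, and the exceptions were genes of low adult level. Of 55 tested cytochromes P450 of families 1 to 4, 48 were at least 2-fold lower, 1 was within 2-fold and 5 were at least 2-fold higher. The shares of all tested genes were 29.4%, 36.6% and 24.8%. The median P450 level was 0.011% of the adult level. No iHLO count was found for 17 tested genes, so that the filter alone set the direction of those 17. *Cyp2e1*, which oxidizes ethanol, had 0 counts against 120045 and 124762 (at least 96675-fold lower), and *Cyp1a2*, which oxidizes caffeine and aromatic amines, had 0 against 16614 and 17536 (at least 13484-fold lower). *Cyp3a11*, a main drug-metabolizing enzyme of mouse liver, had 0 and 1 counts against 43920 and 43902. *Cyp2f2*, shared with the airway, measured 73.2 and 63.6 scaled CPM against 875 and 853 (7.92%). *Cyp2b10*, the target of CAR, was at 0.549%, *Cyp2d26* at 0.117% and *Cyp4b1* at 14.2%. *Cyp1b1* was within 2-fold at 104%, and *Cyp4f16* was called higher at 179% without reaching 2-fold.

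The P450 genes that exceeded adult liver are hardly expressed there. *Cyp2s1*, an enzyme of epithelia outside the liver, measured 43.5 and 42.6 scaled CPM in iHLOs against 1.5 and 1.44 (29.3-fold). *Cyp2d34* had 1355 and 1203 counts against 1 and 5, and *Cyp2d12* had 706 and 704 against 20 and 10. *Cyp2c65*, which the intestine expresses, had 121 and 150 counts against 1 and 0. *Cyp1a1*, the inducible target of the dioxin receptor, had 96 and 61 counts against 16 and 12, a 2.35-fold difference (adjusted p = 0.00276) whose call was lost without adult liver library 2 (log2 fold change 1.013, adjusted p = 0.0633). Members of the 2c, 2d and 3a groups are close copies of each other, so reads may be split among them in either group of libraries.

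Of the conjugating and related enzymes, 55 of 66 tested were at least 2-fold lower, 7 were within 2-fold and 4 were at least 2-fold higher. The shares of all tested genes were 29.4%, 36.6% and 24.8%. The median of these enzymes was 1.33% of the adult level. Carboxylesterases were among the lowest, with *Ces1c*, *Ces1d*, *Ces1e*, *Ces3a* and *Ces3b* at 0 iHLO counts and *Ces1c* at least 136566-fold lower. *Adh1*, the main alcohol dehydrogenase, was at 0.197%, and *Por*, the electron donor of all microsomal P450 enzymes, at 7.91%. Glutathione transferases split within the family: *Gstm1* was at 3.27% and *Gstp1* at 22.3%, while *Gsto1* measured 556 and 528 scaled CPM in iHLOs against 165 and 163 (3.31-fold higher). *Gsta4*, which clears lipid aldehydes, was 2.54-fold higher, with 237 and 234 against 94.1 and 91.5, and *Gsta1* and *Gstp2* were 2.99-fold and 4.13-fold higher.

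Several abundant conjugating enzymes reached the adult level under TMM. *Ugt2b34*, a glucuronosyltransferase, measured 548 and 540.3 scaled CPM in iHLOs and 769 and 714 in adult liver (73.4%). *Ephx1*, the microsomal epoxide hydrolase, stood at 78.6%, *Tpmt* at 90.2% and *Sult1d1*, a sulfotransferase, at 114%. The remaining genes within 2-fold were *Nat2*, *Gstm5* and *Sult1c2*. *Ugt2b34*, *Ephx1*, *Nat2*, *Gstm5* and *Tpmt* were lower than adult liver under TMM and higher under library totals. In that scaling 3 genes of the list were within 2-fold and 9 at least 2-fold higher (14.3% and 62.8% of all tested genes).

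**Figure D4:**
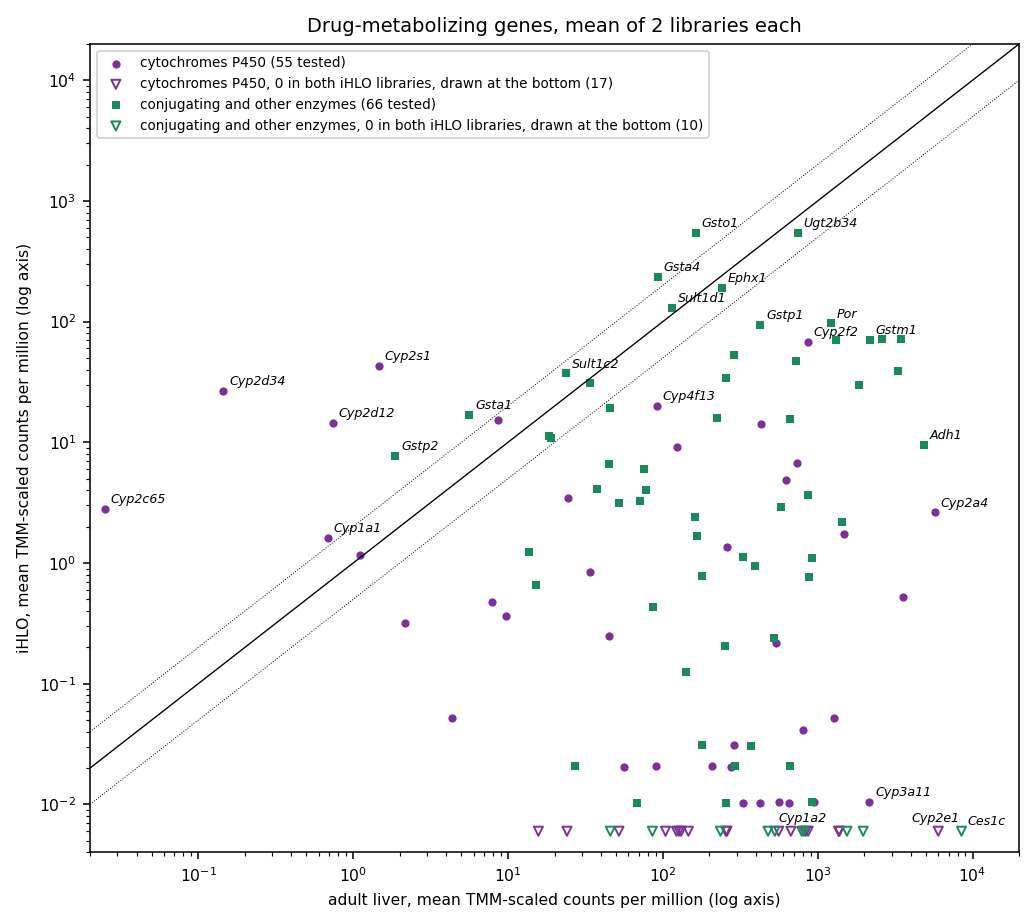
Mean TMM-scaled CPM in iHLOs (y axis) against adult liver (x axis), both on log axes, for tested cytochromes P450 and conjugating enzymes; each point is a gene and the mean of 2 libraries, and open triangles at the bottom edge are genes with 0 iHLO counts (17 P450 genes and 10 conjugating enzymes). Few genes that are abundant in adult liver lie near the line of equal level, *Ugt2b34* and *Ephx1* among them, and *Cyp2s1*, *Cyp2d34* and *Gsto1* lie above it.

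Fat metabolism genes were lower too. In fatty acid oxidation and ketone synthesis, 23 of 24 tested genes were at least 2-fold lower (29.4% of all tested genes were), and the median was 8.61% of the adult level. *Fabp1*, the hepatic fatty acid binding protein, had no iHLO count against 145369 and 144077 (at least 114360.4-fold lower). Of the core mitochondrial enzymes, *Acadm* was at 18.9%, *Hadha* at 10.6%, *Cpt2* at 13.7% and *Acaa2* at 4.43%. *Cpt1a*, the entry gate, was at 37.9% and *Acadl* at 54.4%, and both were higher than adult liver under library totals (log2 fold changes of 0.13 and 0.65).

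Of 22 cholesterol synthesis genes, 21 were at least 2-fold lower (29.4% of all tested genes were), in a narrow span from 1.77% (*Tm7sf2*) to 24.4% (*Sqle*) with a median of 8.14%. *Srebf2*, the transcription factor that drives these genes, was within 2-fold at 150.3%. In fatty acid synthesis 17 of 20 genes were at least 2-fold lower, from *Thrsp* (2 and 1 counts against 56577 and 58776) to *Fasn* at 8.88% and *Elovl5* at 46.8%. The desaturases changed places: *Scd1*, the adult liver form, measured 146 and 149 against 2953 and 2998 (4.96%), whereas *Scd2* measured 564 and 569 against 12.3 and 12.2 (46.2-fold higher, adjusted p = 2.90e-20). *Dgat1*, of the last step of triglyceride synthesis, was called lower at 52.7% without reaching 2-fold, and both *Dgat1* and *Elovl5* were higher under library totals. *Pnpla2*, a triglyceride lipase, was within 2-fold at 70.6% and higher under library totals (log2 fold change 1.03).

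Nuclear-encoded subunits of the respiratory chain were lower in all 36 cases, 35 of them by at least 2-fold (43.7% and 29.4% of all tested genes were). The folds were similar, with a median of 26.9% and a span from 12.5% (*Ndufa4*) to 67.0% (*Ndufs7*). The size of this difference depended on the scale: under library totals the median log2 fold change went from -1.89 to -0.36. In that scaling 3 genes were at least 2-fold lower and 32 were within 2-fold (16.9% and 14.3% of all tested genes), and 8 took the other sign, *Ndufs7* among them. *Atp5b*, a catalytic subunit of ATP synthase, measured 673 and 699 scaled CPM against 2069.9 and 2062 (33.2%). *Sdhb*, of succinate dehydrogenase, measured 45.1 and 44.8 against 329.5 and 333 (13.6%).

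Of 25 iron, copper and haem genes, 24 were called lower, 20 were at least 2-fold lower and 5 were within 2-fold (43.7%, 29.4% and 36.6% of all tested genes were). Their median was 26.5%. *Hamp*, the iron hormone hepcidin, had 21 and 15 counts against 10134 and 10766, and *Hjv*, its upstream coreceptor, had none against 1890 and 2001. *Tfr2*, the iron sensor of hepatocytes, was at 5.64%. The 5 genes within 2-fold include storage and export. *Fth1*, ferritin heavy chain, measured 1242 and 1194 scaled CPM against 1804 and 1744 (68.6%), *Atp7b*, the copper exporter, was at 71.2%, *Slc11a2*, an iron importer, at 75.6%, *Cpox* at 73.0% and *Hmox1*, haem oxygenase, at 122%. Under library totals 8 of the called genes of this list took the other sign, *Fth1*, *Atp7b*, *Slc11a2* and *Cpox* among them, and the median log2 fold change was -0.38 in place of -1.92. In that scaling 9 genes were at least 2-fold lower and 11 within 2-fold (16.9% and 14.3% of all tested genes).

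Of 26 genes of hormone axes, 21 were at least 2-fold lower, 4 within 2-fold and 1 at least 2-fold higher (29.4%, 36.6% and 24.8% of all tested genes were). *Igf1*, the growth factor that carries the growth hormone signal, *Igfals*, *Igfbp1* and *Igfbp2* had no iHLO count, and *Igf1* was at least 16227-fold lower. *Ghr*, the growth hormone receptor, was at 0.297%, *Gcgr*, the glucagon receptor, had 2 and 2 counts against 7233 and 7555, and *Prlr* had 6 and 6 against 46441 and 47695. *Insr*, the insulin receptor, was within 2-fold at 69.8%, and *Irs2*, its substrate, measured 49.9 and 47.9 against 11.4 and 12.5 scaled CPM (4.10-fold higher). *Met*, the receptor of hepatocyte growth factor, was within 2-fold at 94.4%, with a log2 fold change of 1.45 under library totals. *Thpo*, thrombopoietin, and *Osmr*, the oncostatin M receptor, were within 2-fold at 62.3% and 82.0%. *Insr*, *Thpo* and *Osmr* were likewise higher under library totals. *Hgf* itself had 76 and 32 counts against 147 and 154.

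Genes of both zones of the liver lobule were lower. Periportal genes were at least 2-fold lower in 13 of 14 cases and pericentral genes in 12 of 14 (29.4% of all tested genes were). Their median log2 fold changes were -10.22 and -6.08. *Lgr5* and *Axin2*, Wnt targets around the central vein, had 0 and 1 and 18 and 19 counts against 69 and 55 and 81 and 86. *Slc1a4* was the pericentral exception, 12.5-fold higher with 78.5 and 78.6 against 6.66 and 5.95 scaled CPM. The adult libraries held 14646 and 16368 counts of *Xist*, the RNA of the silenced X chromosome, and none of the Y-linked genes *Ddx3y*, *Uty* or *Eif2s3y*. The methods name male animals for the adult liver tissue of quantitative PCR and give no sex for the sequenced liver. The iHLO libraries held 34 and 34 counts of *Xist* and none of these Y-linked genes. *Kdm5d*, also Y-linked, had 0 and 1 counts in iHLOs and none in adult liver. The sex of the source cannot be told apart from the other differences between the groups. Of the genes known to be sex-biased in mouse liver, all 7 tested male-biased and all 11 female-biased members were at least 2-fold lower in iHLOs (29.4% of all tested genes were). Of these, 2 and 4 had no iHLO count, so that the filter alone set their direction. Another 4 male-biased members did not pass the filter.

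Of 20 glycolysis genes, 7 were at least 2-fold higher, 6 within 2-fold and 6 at least 2-fold lower, with a median of 102% of the adult level. These shares were near those of all tested genes (24.8%, 36.6% and 29.4%), and under library totals 12 were at least 2-fold higher, 6 within 2-fold and 2 at least 2-fold lower, against 62.8%, 14.3% and 16.9% of all tested genes on that scale. Isoenzymes of non-hepatic tissues were among the higher ones. *Pkm*, the pyruvate kinase of most tissues, measured 827 and 825 scaled CPM in iHLOs against 35.1 and 34.0 (23.9-fold), while *Pklr*, the liver form, was at 2.13%. *Hk2* measured 163 and 159 against 5.21 and 4.80 (32.2-fold) and *Hk1* 208 and 212 against 9.57 and 8.74 (22.9-fold). *Pfkp* was 33.0-fold and *Slc2a1*, the ubiquitous glucose carrier, 9.54-fold higher. *Aldoa*, the aldolase of muscle and proliferating cells, was 4.43-fold higher. *Gapdh* was at 24.9% of adult liver. Under library totals 5 of the called genes of this list took the other sign, from lower to higher.

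Cholangiocyte genes split into a higher and a lower set. Of 22 tested members, 11 were at least 2-fold higher, 3 within 2-fold and 8 at least 2-fold lower, against 24.8%, 36.6% and 29.4% of all tested genes. On the scale of library totals the counts were 14, 0 and 6 (62.8%, 14.3% and 16.9% of all tested genes). *Krt19*, a ductal keratin, measured 433 and 406 scaled CPM in iHLOs against 6.91 and 7.39 (58.6-fold; log2 fold change 5.87 ± 0.07, SE), and *Krt7* measured 268 and 247 against 4.06 and 3.89 (64.7-fold). *Epcam*, a surface protein of ducts and progenitors, was 20.3-fold and *Cd24a* 24.9-fold higher. *Ehf* and *Elf3*, epithelial ETS factors, were 50.5-fold and 45.7-fold higher. Other duct genes went the opposite way. *Sox9*, the duct-determining factor, was at 21.3%, *Spp1*, osteopontin, at 6.54%, *Cftr*, the chloride channel, at 14.1% and *Pkhd1*, of primary cilia, at 0.535%. The 8 lower genes stayed lower under library totals.

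Of 38 keratin and junction genes, 15 were at least 2-fold higher, 8 within 2-fold and 14 at least 2-fold lower, against 24.8%, 36.6% and 29.4% of all tested genes. Under library totals the counts were 23, 3 and 8 (62.8%, 14.3% and 16.9% of all tested genes). *Krt8* and *Krt18*, the keratin pair of hepatocytes, were within 2-fold at 134% and 65.2%, with *Krt18* higher than adult liver under library totals. The gap junction genes of hepatocytes, *Gjb1* and *Gjb2*, were at 0.898% and 0 and 1 counts against 7123 and 7651. *Cldn1* had no iHLO count and *Cldn14* had 1 and 0, whereas *Cldn2* measured 651 and 684 scaled CPM against 128 and 128 (5.22-fold higher). *Cdh1*, E-cadherin, was 4.40-fold higher with 272 and 269 against 60.8 and 62.2, and *Ocln*, occludin, was 4.94-fold higher with 94.9 and 92.8 against 19.3 and 18.6. *Cdh2*, N-cadherin, which adult hepatocytes also carry, was at 5.61%.

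Genes of the gastrointestinal mucosa were mostly higher in iHLOs. Of 29 tested members, 22 were at least 2-fold higher, 1 within 2-fold and 5 at least 2-fold lower, against 24.8%, 36.6% and 29.4% of all tested genes. Under library totals the counts were 24, 0 and 3 (62.8%, 14.3% and 16.9% of all tested genes). Of the 29 members, 9 had 0 adult counts and so passed the filter through the iHLO libraries alone. *Dmbt1*, a secreted scavenger protein of mucosal surfaces, had 66003 and 55927 counts in iHLOs and none in adult liver, which makes it at least 8566-fold higher. *Ltf*, lactoferrin, had 47066 and 40568 counts against 13 and 17. *Lgals4*, a galectin of gut epithelium, measured 1271 and 1279.6 scaled CPM against 12.7 and 12.2 (102-fold). *Cldn18*, *Gkn1* and *Pgc*, which belong to the stomach lining, had 11795 and 11704, 5893 and 5694 and 3542 and 3997 counts in iHLOs and none in adult liver, so that they were at least 1652-fold, 815-fold and 530.4-fold higher. *Cdx2*, the transcription factor of intestinal identity, had 974 and 1033 counts and none in adult liver (at least 141-fold higher), while *Cdx1* had none in any of the 4 libraries. *Pigr*, the immunoglobulin transporter that liver and gut share, was at 14.9%. Over all genes, the 10 largest increases were *Dmbt1*, *Lncenc1*, *Lypd8*, *Trap1a*, *Cldn18*, *Slc7a11*, *Gcnt3*, *Mucl3*, *Gkn1* and *Adgrg7*, all with 0 adult counts, and *Lypd8*, a secreted protein of the colon surface, had 16587 and 15883 counts in iHLOs. In the 2D iHepSCs of the series, a parallel monolayer culture, there were 13542 and 11931 counts of *Cldn18* and 481 and 671 of *Dmbt1* in the 2 libraries.

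**Figure D5:**
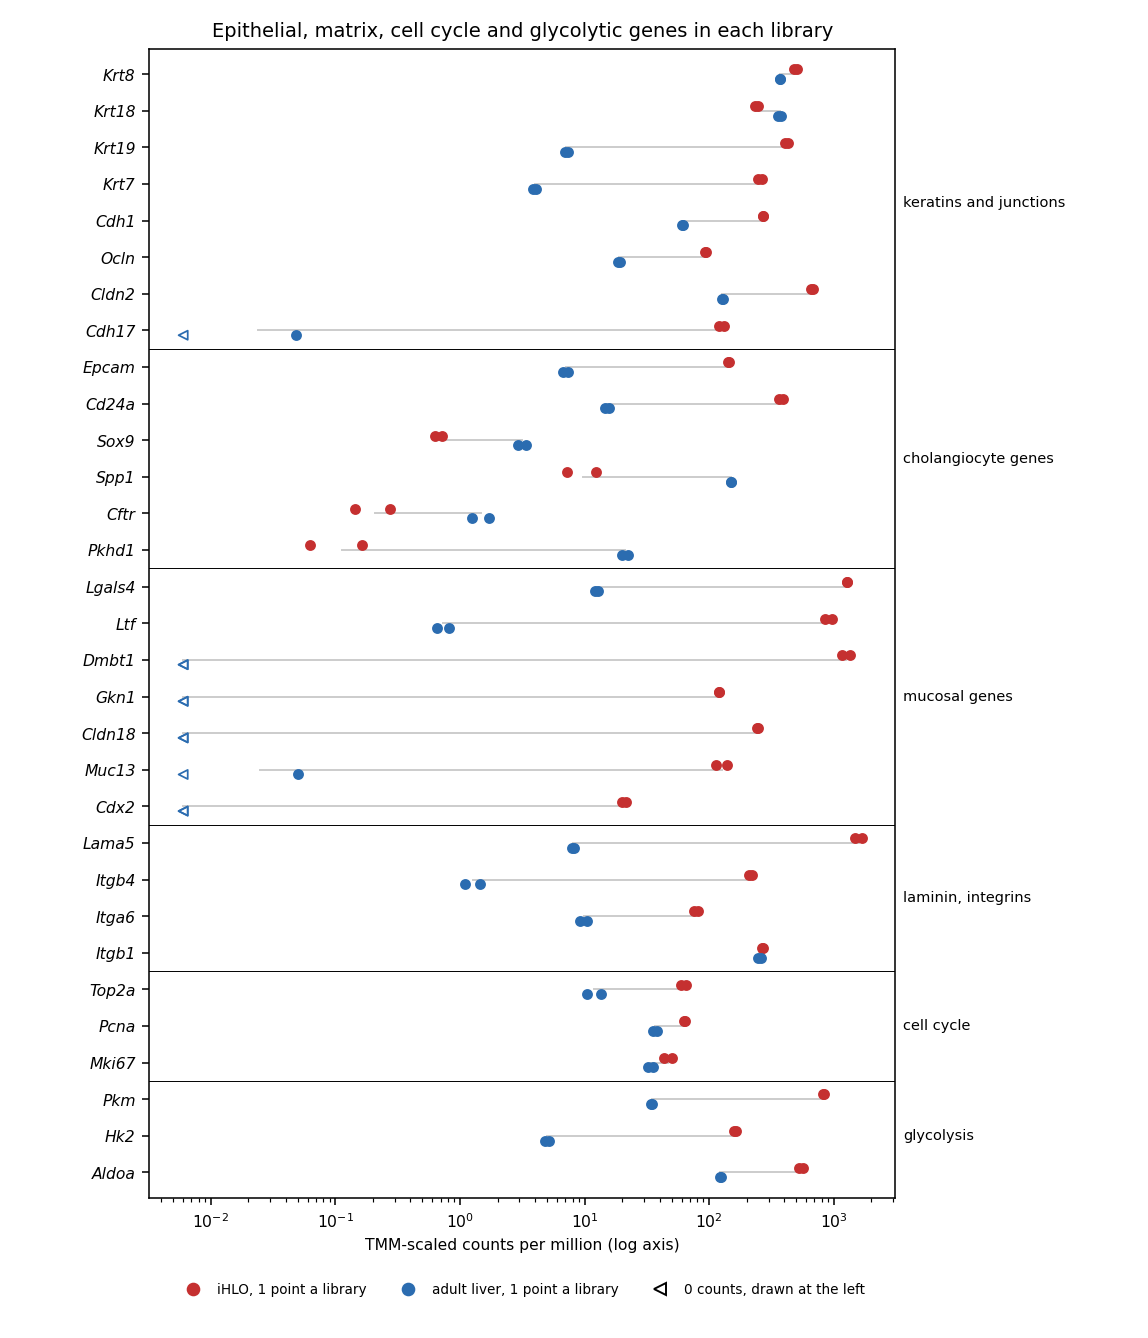
Level of 31 genes of epithelial identity, mucosa, adhesion, cell division and glycolysis in each library (x axis, TMM-scaled CPM on a log axis; points are libraries, 2 for iHLOs and 2 for adult liver; open triangles at the left edge are 0 counts). *Krt19*, *Krt7*, *Epcam*, *Lgals4*, *Ltf* and *Pkm* lie right of adult liver, *Dmbt1*, *Gkn1*, *Cldn18* and *Cdx2* have 0 adult counts, and *Sox9*, *Spp1*, *Cftr* and *Pkhd1* lie left of adult liver.

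Of 23 tested integrin and laminin genes, 12 were at least 2-fold higher, 3 within 2-fold and 7 at least 2-fold lower, against 24.8%, 36.6% and 29.4% of all tested genes. Under library totals the counts were 15, 2 and 5 (62.8%, 14.3% and 16.9% of all tested genes). *Lama5*, a laminin chain of basement membranes, measured 1669 and 1493 scaled CPM against 8.27 and 7.87 (196-fold), *Itgb4* 221 and 207 against 1.10 and 1.44 (168-fold) and *Itga6* 81.6 and 75.6 against 9.12 and 10.5 (8.01-fold). *Itgb1*, the shared beta chain, was within 2-fold at 105%, and *Itgav*, a fibronectin receptor chain, was 2.97-fold higher. *Itga5*, the partner of *Itgb1* in fibronectin binding, was within 2-fold at 67.4% and higher under library totals (log2 fold change 0.96). *Itga9* and *Lama4*, found in vessels and stroma, had 2 and 1 and 1 and 0 counts. Targets of YAP and TEAD, which respond to spreading and stiffness, were at least 2-fold higher in 10 of 23 cases, within 2-fold in 8 and at least 2-fold lower in 3 (24.8%, 36.6% and 29.4% of all tested genes were), but in 19, 1 and 2 cases under library totals (62.8%, 14.3% and 16.9%). Among them, *Myof* was 70.3-fold, *Ankrd1* 6.61-fold and *Ccn2* 5.37-fold higher.

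Of 30 cell division genes, 18 were at least 2-fold higher, with 11 within 2-fold and none at least 2-fold lower (24.8%, 36.6% and 29.4% of all tested genes were). Under library totals 28 were at least 2-fold higher and none was within 2-fold (62.8% and 14.3% of all tested genes). *Top2a* measured 59.2 and 65.7 scaled CPM against 13.5 and 10.4 (5.24-fold), *Mcm2* 28.1 and 26.4 against 6.46 and 6.48 (4.21-fold), and *Mki67*, the usual proliferation marker, 43.0 and 50.3 against 32.5 and 35.6 (137%, within 2-fold). *Ccnd1* and *Tyms* were slightly lower at 67.1% and 63.3%, and higher under library totals (log2 fold changes of 0.96 and 0.87).

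Fetal liver genes went both ways. Of 14 tested members, 6 were at least 2-fold higher, 6 at least 2-fold lower and 2 within 2-fold, against 24.8%, 29.4% and 36.6% of all tested genes. Under library totals the counts were 8, 5 and 1 (62.8%, 16.9% and 14.3% of all tested genes), and the median log2 fold change was 1.52 in place of -0.0075. *Afp*, the fetal counterpart of albumin, had 486 and 557 counts in iHLOs and 105 and 107 in adult liver (2.08-fold higher), beside 432944 and 336523 in the 2 fetal liver libraries of the series. *Hmga2*, *Igf2bp1* and *Igf2bp2*, oncofetal growth genes, were also higher, with 4647 and 4339, 850 and 821 and 3090 and 3028 counts against 7 and 3, 1 and 0 and 11 and 19. *Peg3*, *Grb10* and *Igf2*, imprinted genes of fetal growth, were sparse: *Peg3* had 1 and 4 counts, *Grb10* 6 and 1 and *Igf2* 0 and 1, where fetal liver had 13377 and 14588, 24025 and 24495 and 3221 and 3093. *Dlk1*, a hepatoblast surface protein, had 41 and 1 counts in iHLOs and did not pass the filter.

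Markers of hepatocytes and of most other cells of the liver were lower in iHLOs, while the summed levels of the cholangiocyte and mesothelial markers were higher. The 10 hepatocyte markers summed to 269 and 250.2 scaled CPM in iHLOs against 448627 and 419477 in adult liver, and all 10 were called lower. Of all tested genes, 43.7% were called lower and 29.4% were called and at least 2-fold lower. Of the 6 cholangiocyte markers, *Krt19*, *Krt7* and *Epcam* were higher and *Sox9*, *Spp1* and *Cftr* lower, with sums of 855 and 805 against 171 and 173. All 14 Kupffer cell and macrophage markers were lower, 8 of them at 0 iHLO counts. Sinusoidal endothelial markers were lower in 14 of 16 cases, with sums of 406 and 423 against 1168 and 1175, and *Clec4g* was at 0. The exceptions were *Cdh5* and *Tek*, which were higher, and no endothelial cells were added to iHLOs. Of 12 stellate cell markers, 11 were at least 2-fold lower and *Ecm1* was called lower within 2-fold, and was higher under library totals. All 6 tested lymphoid and all 6 tested erythroid markers were lower, and the tested neutrophil markers were lower in 3 of 3 cases. The adult values include RNA of these cells, whose part in the results above was not tested. Among tested markers, 4 of hepatocytes, 8 of Kupffer cells and macrophages, 1 sinusoidal, 1 stellate, 1 lymphoid, 3 erythroid and 2 neutrophil ones had no iHLO count. The filter alone set the direction of those markers. Among the fibroblast and mesenchymal genes, 20 of 25 tested were at least 2-fold lower (29.4% of all tested genes were), with *Col1a2* and *Lum* at 0 iHLO counts. *Fn1*, fibronectin, which adult hepatocytes also secrete, was at 146 and 95.7 against 2322 and 2554 scaled CPM (4.97%). *Vim*, vimentin, and *Timp1*, a protease inhibitor, were 11.6-fold and 5.11-fold higher. Under library totals 12 mesenchymal genes were at least 2-fold lower and 6 were within 2-fold (16.9% and 14.3% of all tested genes). In that scaling 6 called genes took the other sign, and the median log2 fold change was -0.93 in place of -2.45. Of 6 mesothelial markers, *Msln* and *Krt14* were higher and 4 were lower, with sums of 305 and 282 scaled CPM against 16.2 and 15.5 and *Msln* at 11194 and 10211 counts against 81 and 108.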

How the data were processed

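RNA sequencing counts of 14 libraries were deposited as a single table of 28022 genes, and the 2 libraries labelled 3D-iHA and the 2 labelled Adult-Liver were analysed here. According to the submitters' processing notes and the methods, the authors trimmed reads with Trimmomatic 0.36, aligned them with HISAT2 to the mouse build mm10 (GRCm38), annotated with Cufflinks and counted reads for each gene with HTSeq, so the deposited values are raw counts per gene. The handling of strand and of reads that map to several genes is not given in the sources used here, and reads of near-identical copies (*Serpina1*, *Mup*, *Cyp2*, *Cyp3a*, *Ugt* and *Gst* genes) may be split or dropped.

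Genes were kept where log2(count + 1), averaged over the 4 libraries, reached 3 or more. Counts were scaled by TMM and tested with edgeR 4.0.16 (R 4.3.3; quasi-likelihood F test, 1 term for the group, Benjamini-Hochberg adjusted p under 0.05 over all 13988 genes). Standard errors are the fitted log2 fold change divided by the square root of F. Levels per length (TPM) used transcript lengths of GENCODE vM21. Folds against a group with 0 counts are bounds at 3 counts per library, covering counting error only. Fold changes of genes with 0 to 3 counts in a group depend on the prior count, so list medians are also given with bounds. The fit was also run on simulated counts in which few genes changed, which cannot show how it performs where most genes differ. With 27998348 to 35022256 counts per library the common coefficient of variation was 3.35%.

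The 2 libraries of a group differed by more than counting noise (chi-square per gene 2.83 for iHLOs and 3.03 for adult liver), so they were not counted as copies of 1 library. This does not show that they came from separate cultures or animals. The members and gene lists were chosen with earlier results of these data known. The rule for naming genes took, for each list, the 2 members with the highest level per length (in adult liver for liver and developmental lists, in iHLOs for the others) and the 2 with the highest (others: lowest) ratio to adult liver, the 10 largest changes in each direction, the study's marker panels, all liver transcription factors and the conversion factors; some of them are covered by their list's counts. Further genes were named after their values were seen. Alternatives were another filter, DESeq2 1.42.0 (size factors and Wald test), library totals, median centring, all 14 libraries, a test against a 2-fold change, a block on library number and leaving out each library. Promoters came from RefSeq (GRCm38.p6), matched by symbol. Some genes that the rule names are not reported here.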

Additional observations from a re-analysis of the deposited data

How the results depend on the processing

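The balance of directions depended on the scale. With library totals in place of TMM, 10282 genes were called higher in iHLOs and 2943 lower, 8791 were at least 2-fold higher, 2362 at least 2-fold lower and 2000 within 2-fold. Of the 5122 genes within 2-fold under TMM, 327 stayed there under library totals and 4613 to 5097 under the other settings tried over the same genes that give an interval. Tested against a 2-fold change (glmTreat), 6824 genes were called, 3036 higher and 3788 lower. Leaving out each library in turn gave 11765 to 12157 calls; the spread then comes from the other group's 2 libraries, and the lone library is assumed to vary like them. The other settings gave between 10633 of 11862 genes (minimum of 5) and 13877 of 19955 (no filter), with 11513 by DESeq2's Wald test. At least 2-fold lower were 454 liver-list genes of 513 under TMM, with no filter, median centring, DESeq2 (both forms), all 14 libraries, the replicate block and each library left out, and 418 under library totals.

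Among the genes followed by the naming rule, the log2 fold change under library totals took the other sign for *F3* (0.73), *Ggcx* (0.63), *Cd55* (0.84), *Got1* (0.35), *Acadl* (0.65), *Cpt1a* (0.13), *Pnpla2* (1.03), *Sdsl* (0.74), *Slc11a2* (1.13), *Met* (1.45), *Tbx3* (0.85), *Cox8a* (0.089), *Ccnd1* (0.96), *Tyms* (0.87), *Itga5* (0.96), *Foxa2* (1.19) and *Cebpb* (1.12), and with no filter for *Met* (0.0029). Library totals by construction move all genes alike. *Atp5b* lost its call under library totals (-0.06).

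*Cd46* lost its call without iHLO library 2 (log2 fold change 0.40), without adult liver library 1 (0.64) or 2 (0.70), with all 14 libraries (0.71) and by DESeq2's Wald test (0.61), against 0.67. *Hmox1* lost its call without iHLO library 1 (0.11), without adult liver library 2 (0.22), with all 14 libraries (0.32) and by DESeq2's Wald test (0.22), against 0.28, and *Cyp1a1* without adult liver library 2 (1.013). The causes were not tested.

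The library numbers are shared by the groups only as numbers: deviations of same-numbered libraries had a correlation of 0.0082 across genes. With a replicate block, 12328 genes were called, 6199 higher and 6129 lower, and no call of 158 named genes changed.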
